A study of Mus musculus with 8 samples.

Results

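Single-nucleus RNA sequencing of mouse hippocampus was used here to follow the metabotropic glutamate receptor genes Grm2, Grm3, Grm4, Grm5, Grm6, Grm7 and Grm8. The 7 members were taken by gene symbol from the 30211 genes of the count matrices. No measured value was a criterion, but earlier results of these data were known when the members were chosen. The 8 libraries came from 8 mice, C57BL/6 per the labels and C57BL/6N per the study's methods: 3 WT and 3 GKO mice aged 7 months, and a single J20;WT mouse and a single J20;GKO mouse, both 6 months old. GKO mice lack exons of Gsap, the gamma-secretase activating protein gene, in every tissue, since loxP-flanked exons were removed by a Cre transgene under the CMV promoter. J20 mice carry a human APP transgene with the Swedish and the Indiana mutation, driven by the PDGFB promoter, and the J20;GKO mouse carried both alterations. The WT and J20;WT mice kept both Gsap alleles. With 1 mouse in each J20 group, the J20 values carry no replicate error.

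Metabotropic glutamate receptors are G protein-coupled receptors that answer glutamate more slowly than the ion channel receptors do. Grm5 encodes a group I receptor, which couples to Gq, phospholipase C and the release of stored calcium and sits mainly beside the postsynaptic density. The group II receptors of Grm2 and Grm3 and the group III receptors of Grm4, Grm6, Grm7 and Grm8 couple to Gi/o, lower cyclic AMP and often act at presynaptic terminals, where they restrain transmitter release. In the hippocampus Grm2 is best known from mossy fibers, the axons of dentate granule neurons, and Grm3 from astrocytes. Grm6 is best known from ON bipolar cells of the retina.

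After filtering, 32041 nuclei remained, 2731 to 5252 a library, with 21020159 to 43310978 unique molecular identifiers (UMIs) a library. They formed 41 clusters, of which 31 were named from marker genes and 10, holding 10.1% of the nuclei, stayed unnamed. Each cell type name below stands for a marker-defined, and so only type-like, group, and 15 types had nuclei enough in all 8 mice to be ordered by level. The cortex deep layer and subiculum groups carry markers of those regions within the dissected tissue. Levels are CPM, the UMIs of a gene scaled to the total over all genes in the same type and library, given as mean ± SD over mice. Gsap itself lay at 19.8 to 22.98 CPM in all 8 libraries and did not separate the libraries labelled GKO from WT (log2 fold change over all nuclei -0.07, SE 0.09, edgeR adjusted p = 1). A count over the whole gene does not test the deleted exons. WT replicate 1 and GKO replicate 1 carry an earlier date in the deposited data than the other 4 mice of these groups, called the first and the second batch here although the sources do not say what the date marks. The same 2 libraries had, in that order, 2259 and 2135 CPM of Xist, against 1.68 to 1.99 CPM in the other 4.

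The members lie on 6 chromosomes of GRCm38 (GENCODE vM21). Grm2 spans chr9:106643095-106656082, Grm3 chr5:9485541-9725170 and Grm4 chr17:27422387-27521403, all on the minus strand. Grm5 spans chr7:87584168-88134907 and Grm6 chr11:50850685-50866208 on the plus strand. Grm7 on the plus strand, chr6:110645581-111567230, and Grm8 on the minus strand, chr6:27275119-28135178, share chromosome 6. Grm2 was the shortest of them, Grm3 spans 239.6 kb, and Grm7 was the longest at 921.6 kb. Since long introns add reads to nuclear counts where introns are counted, levels are compared between types within a gene, not between genes. Grm3, Grm4, Grm5, Grm7 and Grm8 each overlap at least 1 annotated gene on their own strand, with which reads could be shared or lost.

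RefSeq promoter windows (GRCm38.p6, 250 bases before to 50 after a transcript start) were at hand for 5 of the members. Those of Grm2, Grm3 and Grm6 are shown because these genes had the most unlike distributions over types: granule neurons, glia and almost no transcript. Capitals mark the GC box letters GGGCGG or their reverse complement CCGCCC, searched on both strands. All 3 sequences are written 5′ to 3′ on the strand of the gene.
Grm2 (chr9:106656060-106656359, minus strand): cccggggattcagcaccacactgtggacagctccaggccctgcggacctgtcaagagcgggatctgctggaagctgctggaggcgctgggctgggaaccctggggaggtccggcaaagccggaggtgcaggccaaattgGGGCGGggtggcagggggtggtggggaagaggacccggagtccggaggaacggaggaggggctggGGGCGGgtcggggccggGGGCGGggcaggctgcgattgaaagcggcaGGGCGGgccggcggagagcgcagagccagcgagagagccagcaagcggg
Grm3 (chr5:9725303-9725602, minus strand): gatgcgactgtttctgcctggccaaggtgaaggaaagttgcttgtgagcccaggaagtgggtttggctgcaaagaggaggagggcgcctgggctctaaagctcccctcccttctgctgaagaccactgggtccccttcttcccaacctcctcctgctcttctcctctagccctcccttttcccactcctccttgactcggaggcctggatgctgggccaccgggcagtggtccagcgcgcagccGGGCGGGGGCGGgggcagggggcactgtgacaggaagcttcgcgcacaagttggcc
Grm6 (chr11:50850435-50850734, plus strand): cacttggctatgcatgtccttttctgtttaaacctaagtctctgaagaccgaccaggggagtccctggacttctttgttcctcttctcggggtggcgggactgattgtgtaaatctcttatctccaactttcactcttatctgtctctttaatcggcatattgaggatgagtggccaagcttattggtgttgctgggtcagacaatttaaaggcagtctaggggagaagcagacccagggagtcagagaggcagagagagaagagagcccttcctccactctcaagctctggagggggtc
The Grm2 window held 4 matches in 72% G and C, the Grm3 window 2 in 63.7%, and the Grm6 window none in 49.7%. Of all 32851 windows of this length, 35.7% held at least 1 match, with a median of 52.7% G and C. Such a match is a description of letters, not of a binding site.

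Grm5, the Gq-coupled member, was high in most neuronal types, lower in Vip interneurons and lowest among neurons in Cajal-Retzius cells, and OPCs carried it as well. Its level was highest in subiculum nuclei at 2603 ± 406 CPM, then in CA1 at 2316 ± 234, Pvalb interneurons at 2184 ± 232 and Sst interneurons at 2180 ± 359. These neighbours overlapped in range, and the order of the first pair held in 7 of 8 mice. Within the subiculum type, however, 1 cluster with 1048 of the 1757 nuclei held 1464 CPM, below the CA1 mean. By mean UMIs per nucleus CA3 came first, at 35.8 UMIs. Dentate granule neurons lay at 1539 to 1919 CPM with a median of 1738, and CA1 neurons at 1939 to 2655 with a median of 2303. The dentate and CA1 ranges did not overlap. In edgeR's quasi-likelihood test with the mouse as a block, dentate Grm5 was lower than CA1, with a log2 fold change of -0.44 (SE 0.05, adjusted p = 4.86e-06), and CA3 Grm5 was lower than CA1 at -0.33 (SE 0.04, adjusted p = 2.70e-07). The Vip interneuron group also held Cnr1 and Cck, as given below. Vip interneurons, at 929 ± 137 CPM, were the neuronal group with less Grm5 than oligodendrocyte precursor cells (OPCs), at 1094 ± 89.9 CPM, in 7 of 8 mice, apart from Cajal-Retzius cells at 166 ± 101. Against Sst interneurons Grm5 was lower in Vip interneurons, at -1.17 (SE 0.09, adjusted p = 1.64e-12), while Pvalb interneurons differed from Sst by 0.04, with an interval of -0.10 to 0.18.

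Grm2, whose receptor restrains release at mossy fiber terminals, was highest in dentate granule neurons among the types taken whole. It reached 44.0 ± 10.8 CPM there, above subiculum in 8 of 8 mice (26.8 ± 3.84 CPM), although the ranges of the 2 types overlapped and 1 of the subiculum clusters, at 48.6 CPM, exceeded both dentate clusters, at 46.5 and 40.1 CPM. The 8 dentate values ran from 29.8 to 67.3 with a median of 42.6 CPM. CA1 ran from 4.90 to 10.5 with a median of 6.97 CPM, and CA3 from 1.55 to 3.58 with a median of 2.87 CPM. Every dentate value therefore lay above every CA1 value, and every CA1 value above every CA3 value. Grm2 was higher in dentate granule neurons than in CA1 by 2.59 on the log2 scale (SE 0.09, edgeR adjusted p = 2.43e-12) and than in CA3 by 3.95 (SE 0.12, adjusted p = 8.79e-15). Deep cortex neurons held 16.3 ± 4.42 CPM. The other types outside Cajal-Retzius cells were at 2.52 to 5.04 CPM, with ranges that overlapped among neighbours. Cajal-Retzius cells rested on 14 Grm2 UMIs in all and are given no place in this order.

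Grm3, the other group II member, had its highest CPM in oligodendrocytes among the 15 ordered types, and as much in mural nuclei, which are not in that order. By mean UMIs per nucleus, which follow depth, cortex deep layer nuclei came first instead, at 5.42 UMIs, and the log2 ratio of oligodendrocytes to astrocytes was -0.20 in place of 0.69. Oligodendrocytes held 1355 ± 174 CPM, with a range of 1038 to 1566 and a median of 1359. Astrocytes held 841 ± 227 CPM, from 473 to 1170 with a median of 856, and were below oligodendrocytes in 7 of 8 mice. OPCs, the precursors of oligodendrocytes, held 23.3 to 67.5 CPM with a median of 47.6. No OPC value came near those of oligodendrocytes or astrocytes. The difference was -5.01 on the log2 scale for OPCs against oligodendrocytes (SE 0.13, edgeR adjusted p = 2.39e-22) and 4.16 for astrocytes against OPCs (SE 0.23, adjusted p = 5.23e-08). Mural nuclei, the contractile cells of vessel walls, were at 1357 ± 547 CPM in the 6 mice that had 10 or more of them, over 398 UMIs. Microglia held 21.5 ± 14.3 CPM. Among neurons Grm3 was highest in cortex deep layer nuclei at 421 ± 29.8 CPM and above subiculum (176 ± 28.4) in every mouse by range, and lowest in CA3 at 24.8 ± 7.25.

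Grm4, a group III receptor gene with low counts in these nuclei, was led by the same excitatory groups as Grm8. Cortex deep layer nuclei held 22.0 to 41.6 CPM of Grm4 with a median of 31.0, and subiculum nuclei 13.5 to 29.6 with a median of 19.5. The former, taken whole, was higher in 8 of 8 mice. The larger deep cortex cluster, with 711 of 1155 nuclei, held 13.2 CPM, below the mean of each subiculum cluster (27.1, 15.5 and 17.6 CPM). Sst and Vip interneurons followed at 14.6 ± 2.85 and 14.2 ± 4.80 CPM and could not be ordered, 4 of 8 mice favouring each. CA1, CA3 and dentate granule neurons held 1.30 to 3.47 CPM. For Grm8, a presynaptic group III receptor, cortex deep layer nuclei were at 602 to 882 CPM with a median of 742, and subiculum nuclei at 468 to 717 with a median of 615. Vip interneurons came next at 346 ± 114 CPM and then Sst interneurons at 234 ± 59.6, with overlapping ranges, and CA1 was at 99.5 ± 41.97. Subiculum and cortex nuclei together exceeded CA1 by 2.97 on the log2 scale for Grm4 (SE 0.12, edgeR adjusted p = 6.89e-13) and by 2.72 for Grm8 (SE 0.23, adjusted p = 3.58e-05).

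Grm7, whose receptor has a low affinity for glutamate and lies in the presynaptic active zone, was high in all principal neurons. CA3, cortex deep layer and subiculum neurons held 1801 ± 177, 1785 ± 153 and 1688 ± 248 CPM and overlapped. Dentate granule neurons at 1531 ± 203 CPM exceeded CA1 at 1286 ± 167 in 8 of 8 mice, but by 0.23 on the log2 scale (SE 0.05), under the fold threshold of 0.3. CA3 exceeded CA1 by 0.51 (SE 0.04, interval 0.43 to 0.59). Interneurons differed among themselves. Sst interneurons held 1201 ± 189 CPM, with Vip at 677 ± 151, Pvalb at 359 ± 92.3 and Lamp5 at 263 ± 110, and no Vip, Pvalb or Lamp5 value reached the lowest Sst value of 1022 CPM. Against Sst, the log2 fold change of Grm7 was -1.72 in Pvalb (SE 0.09, adjusted p = 8.05e-16) and -2.18 in Lamp5 interneurons (SE 0.15, adjusted p = 4.23e-08). Mural nuclei, with 529 Grm7 UMIs in all, were at 1979 ± 279 CPM in 6 mice.

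Grm6 gave 2 UMIs among all nuclei, 1 in WT replicate 1 and 1 in J20;WT replicate 1. A count of 0, as in dentate granule neurons and CA1, allows up to 0.0628 and 0.0696 CPM over the group when 3 counts are taken as the limit. These limits, and the intervals given below for the J20 mice, cover counting error only. Grm6 passed no filter on low counts and enters no test, so 6 members are tested below.

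**Figure D1:**
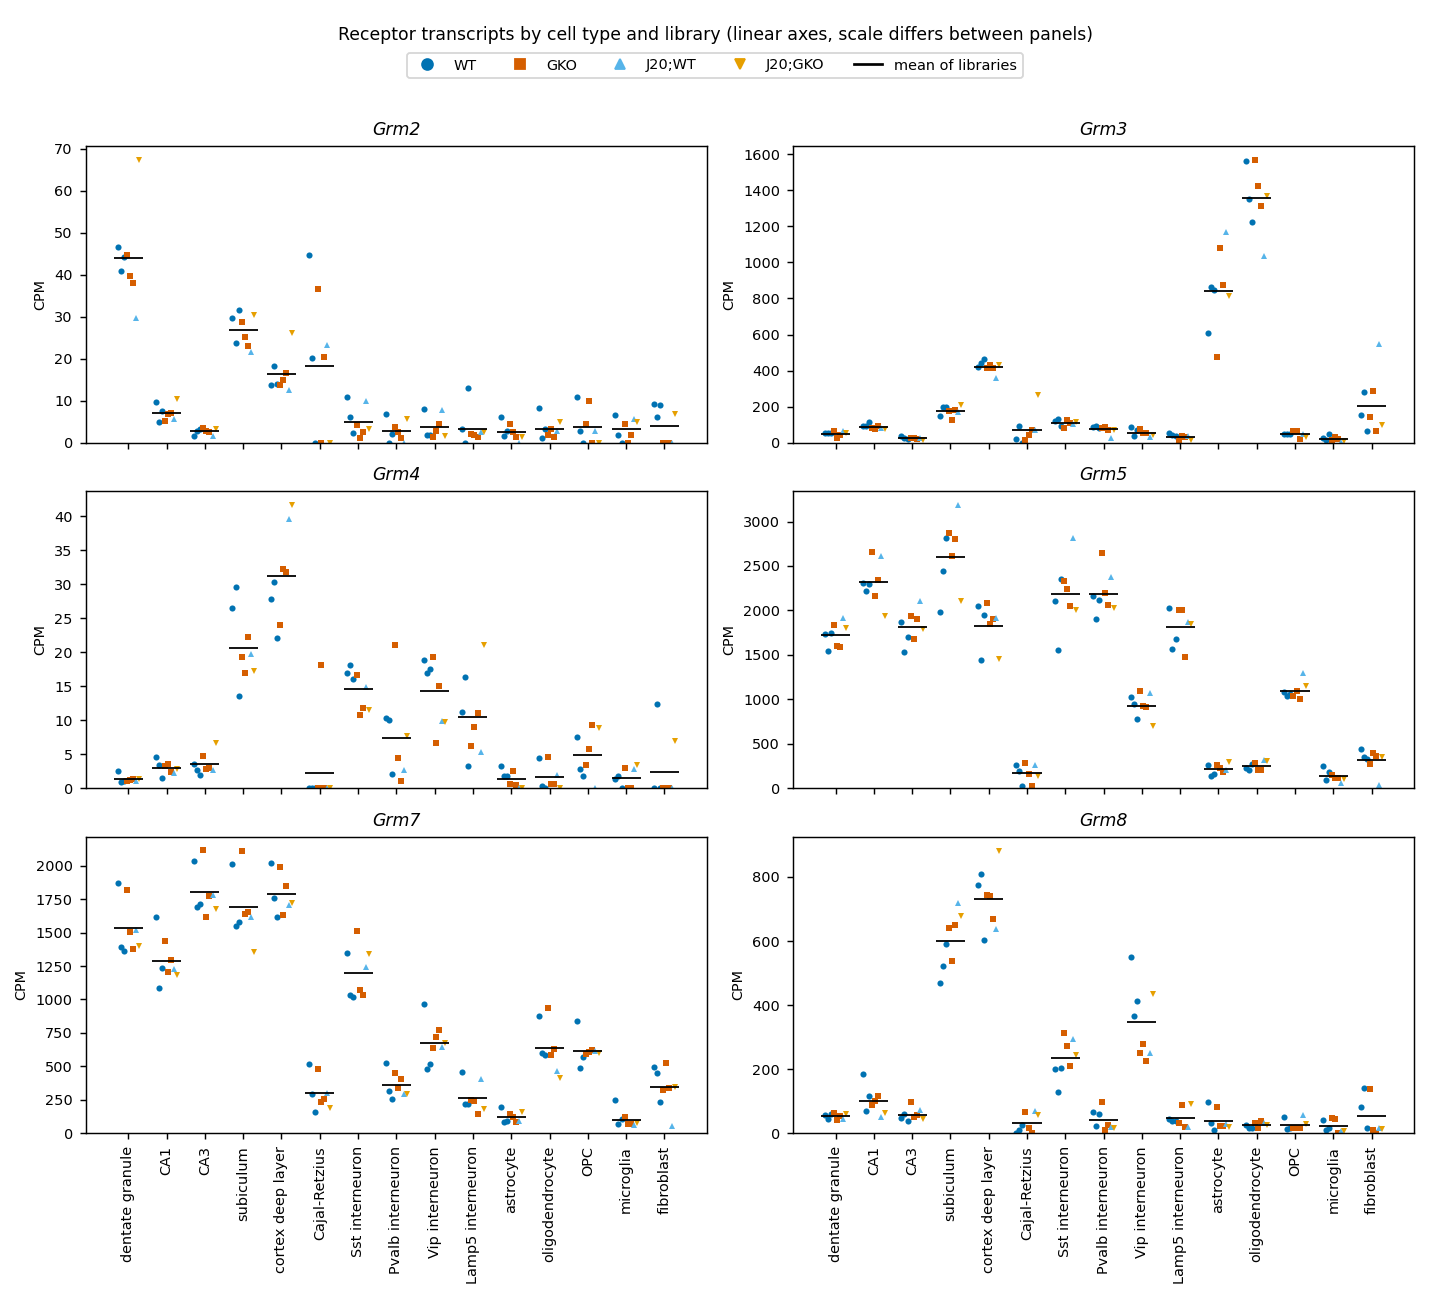
CPM of 6 receptor genes (vertical axes, linear, starting at 0) in 15 cell types (horizontal axis), with 1 point a library marked by genotype and a line at the mean. Grm2 peaks in dentate granule neurons at 44.0 CPM, Grm3 in oligodendrocytes at 1355 and astrocytes at 841, and Grm4 and Grm8 in cortex deep layer neurons at 31.1 and 732.

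The type contrasts were read against the share of all genes called in each (a log2 difference beyond 0.3 either way and an adjusted p under 0.05). For dentate granule neurons against CA1, 5 of 6 members were called against 42.8% of genes: Grm2 was higher, and Grm3 (-0.86), Grm4 (-1.19), Grm5 and Grm8 (-0.86) lower. For CA3 against CA1, 4 of 6 were called against 31.3% of genes, with Grm7 higher and Grm2 (-1.35), Grm3 (-1.81) and Grm5 lower. Between dentate granule neurons and CA3, 3 of 6 were called against 47.9%, with Grm2 and Grm3 (0.96) higher and Grm4 (-1.38) lower in granule neurons. Subiculum and cortex nuclei differed from CA1 in 5 of 6 members against 32.4% of genes, all 5 higher, Grm2 by 1.59, Grm3 by 1.56 and Grm7 by 0.37 besides the pair given above. In that contrast Grm5 differed by -0.06, with an interval of -0.16 to 0.04. These counts are of 6 genes at most and are near the background share in several contrasts, so nothing is read from the counts as such.

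All inhibitory against all excitatory nuclei gave calls for 6 of 6 members against 44.6% of genes. Grm2 was lower in inhibitory nuclei at -2.61 (SE 0.17), as were Grm7 at -1.34 (SE 0.06), Grm3 at -0.73 (SE 0.07), Grm8 at -0.37 (SE 0.08) and Grm5 at -0.31 (SE 0.05), and Grm4 was higher at 0.35 (SE 0.14). Of the 6, Grm4 alone was higher in inhibitory nuclei, and its call (edgeR adjusted p = 0.0345) was lost in DESeq2 (adjusted p = 0.0537) and without WT replicate 2, WT replicate 3 or GKO replicate 1. When the libraries were clustered without integration, Grm5 differed by -0.07 and Grm8 by 0.27, neither of them called, so both calls changed with the clustering. The Grm5 call was also lost without the mouse block (-0.284) and with a stricter filter on nuclei (-0.297). It was lost as well without WT replicate 2, WT replicate 3 or GKO replicate 3. Without GKO replicate 3 the Grm8 call was lost too (-0.277). Among interneurons, 4 of 5 tested members were called for Pvalb against Sst (22.4% of genes), 3 of 5 for Vip against Sst (17.6%) and 3 of 5 for Lamp5 against Sst (23.2%). Grm3, which was 110 ± 17.6 CPM in Sst interneurons, was lower in Pvalb (-0.52), Vip (-0.91) and Lamp5 interneurons (-1.61). Grm8 was lower than in Sst interneurons, at -2.58 in Pvalb (SE 0.35, adjusted p = 0.001) and -2.26 in Lamp5 interneurons (SE 0.28, adjusted p = 4.56e-04), and higher by 0.60 in Vip interneurons without passing the test (interval -0.01 to 1.201).

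In glia, 3 of 4 tested members were called for astrocytes against OPCs (55.4% of genes) and 3 of 6 for OPCs against oligodendrocytes (63.2% of genes). Besides Grm3, Grm5 was lower in astrocytes than in OPCs, at -2.31 (SE 0.10), and Grm7 at -2.30 (SE 0.10). OPCs exceeded oligodendrocytes in Grm5 by 2.01 (SE 0.08) and in Grm4 by 1.39 (SE 0.53). Free neuronal RNA in droplets puts UMIs of neuronal genes into glial nuclei, so glial levels are set beside those of 10 neuronal genes that glia should lack. As a percentage of the excitatory level, these 10 genes together were at 10.8% in astrocytes, 8.92% in oligodendrocytes, 17.1% in OPCs and 10.5% in microglia, single genes reaching 44.3% (Syn1) in OPCs and 34.5% (Stmn2) in microglia.

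Grm5 in OPCs stood at 53.7 ± 4.88% of the excitatory level, above every one of those 10 genes. Grm7 stood at 40.3 ± 7.47% in oligodendrocytes, where the highest of the 10 reached 29.4%, and at 39.5 ± 3.86% in OPCs, below the highest there. Grm4 in OPCs was at 53.8 ± 31.8%, but from 0 to 92.8% in the single mice, and Grm3 in OPCs at 43.2 ± 18.4%, below Syn1. Grm8 was at 18.1 ± 12.8% in astrocytes, below the highest of the 10 genes at 29.9%. In astrocytes Grm5 was at 10.5 ± 2.90% and Grm7 at 7.73 ± 2.24%, and in microglia at 6.49 ± 2.97% and 6.38 ± 2.93%, which is at the background level of these nuclei. Grm3 in astrocytes and oligodendrocytes was at 774% and 1208% of the excitatory level. After each nucleus was thinned to 1000 UMIs, 60.7 ± 6.32% of OPCs and 12.9 ± 1.89% of astrocytes had a Grm5 UMI (93.1% and 34.1% before thinning), and 69.2 ± 4.85% of oligodendrocytes and 3.30 ± 1.76% of OPCs had a Grm3 UMI (88.3% and 12.6% before). Median depth was 1857 to 2583 UMIs a library in oligodendrocytes, 3704 to 5471 in OPCs and 3216 to 4746 in astrocytes. In choroid plexus nuclei, the epithelium that makes cerebrospinal fluid, 409 Grm8 UMIs gave 310 ± 204 CPM over 5 mice, 138 ± 92.5% of the excitatory level, with 30.6 CPM at the lowest and 584 at the highest.

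Clusters of a single type also differed in receptor level. The 7 members were left out of the genes used for clustering, but other genes of the same nuclei were not, so these values are given with no test. Of the 2 astrocyte clusters, cluster 14, with Gfap at 177 CPM, held 1122 CPM of Grm3, and cluster 5, with Gfap at 545 CPM, held 669 CPM. The ratio was 1.35 to 1.90 in the single mice and over 1 in 8 of 8. Grm5 and Grm7 were at 134 against 264 and 58.4 against 162 CPM, but both lie at the neuronal background of astrocytes given above, and called doublets made 0.694% of cluster 14 and 3.49% of cluster 5. The part of either in these 2 values was not tested. Among subiculum clusters, cluster 27, led by Nts and Fn1, held 4169 CPM of Grm5, cluster 21 held 2891 and cluster 12 held 1464, in that order in 8 of 8 mice. Grm2 and Grm3 had their highest subiculum level in cluster 12, at 48.6 and 293 CPM, against 8.81 and 45.2 CPM in cluster 27.

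In the pair of deep cortex clusters, cluster 20, led by genes such as Vwc2l and Cntn6, held more Grm4 than the Ctgf and Rai14 cluster 16 (52.9 against 13.2 CPM), more Grm2 (27.1 against 6.63) and more Grm7 (2331 against 1338), in 8 of 8 mice each. In CA1, cluster 23 held 487 CPM of Grm8 and cluster 7 held 26.5, a ratio of 9.67 to 27.6 in the 7 mice with nuclei enough in both. Grm7 was higher in cluster 23 as well, at 2290 against 1038 CPM, and Grm5 lower, at 1805 against 2379 CPM, in 7 of 7 mice. Cluster 11, the remaining CA1 cluster, lay between, at 60.8 CPM of Grm8. The CA1 mean of Grm8 therefore joins nuclei that differ widely. In dentate granule neurons, cluster 0 held more Grm3 than cluster 1 (70.3 against 34.0 CPM) and more Grm8 (74.8 against 36.4 CPM) in 8 of 8 mice, while Grm2 was close, at 40.1 and 46.5 CPM.

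**Figure D2:**
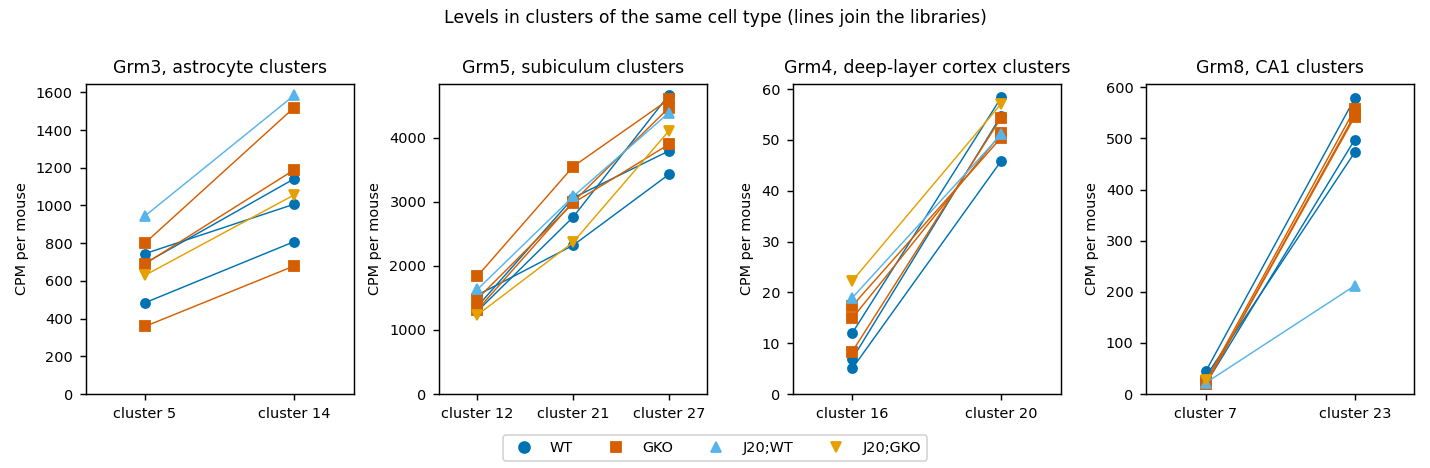
CPM per mouse (vertical axes, linear, starting at 0) in clusters of the same cell type (horizontal axes), with lines joining the clusters of 1 library. Grm3 in astrocytes, Grm5 in subiculum, Grm4 in cortex deep layer and Grm8 in CA1 clusters keep their order in every library shown.

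The deletion of Gsap was compared with WT in 15 types and 3 pools over the 3 WT and 3 GKO mice. Of 126 possible member and type pairs, 84 passed the filter on low counts, and 0 were called, as were 0% of all genes in each comparison. At an unadjusted p under 0.05 there were 3 of 84 pairs in edgeR's quasi-likelihood test, against 1.79% of 197247 gene and type pairs (1.75% of genes in Vip, 2.08% in Sst and 2.41% in Lamp5 interneurons), and DESeq2 also called 0 and gave 3 such pairs of 84, against 0.691% of all pairs. That count was 9 of 86 with mice of the same number as a replicate block (4.72% of all pairs), 9 of 86 with batch as a term (4.57%), 9 of 109 without the filter (2.45%), 8 of 82 in the second batch alone (4.53%) and 2 to 7 with 1 mouse left out (1.77% to 3.86%), with 0 called each time. The fold change was above 0 in 41 pairs and below 0 in 43. For 63 of the 84 pairs the interval lay within a log2 fold change of 1 either way, and for 25 within 0.5. In dentate granule neurons, Grm2 was 46.7, 40.9 and 44.3 CPM in WT and 44.8, 39.7 and 38.2 CPM in GKO mice, a log2 fold change of -0.09 (SE 0.12). Grm5 in CA1 was 2307, 2217 and 2298 CPM in WT and 2655, 2156 and 2341 CPM in GKO mice, a log2 fold change of 0.09 (SE 0.13). In both pairs the groups overlapped, and within mice of the same number Grm2 was lower in 3 of 3 GKO mice and Grm5 in 1 of 3. With the replicate block the log2 fold changes were -0.09 (SE 0.09) and 0.08 (SE 0.10), and neither was called.

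**Figure D3:**
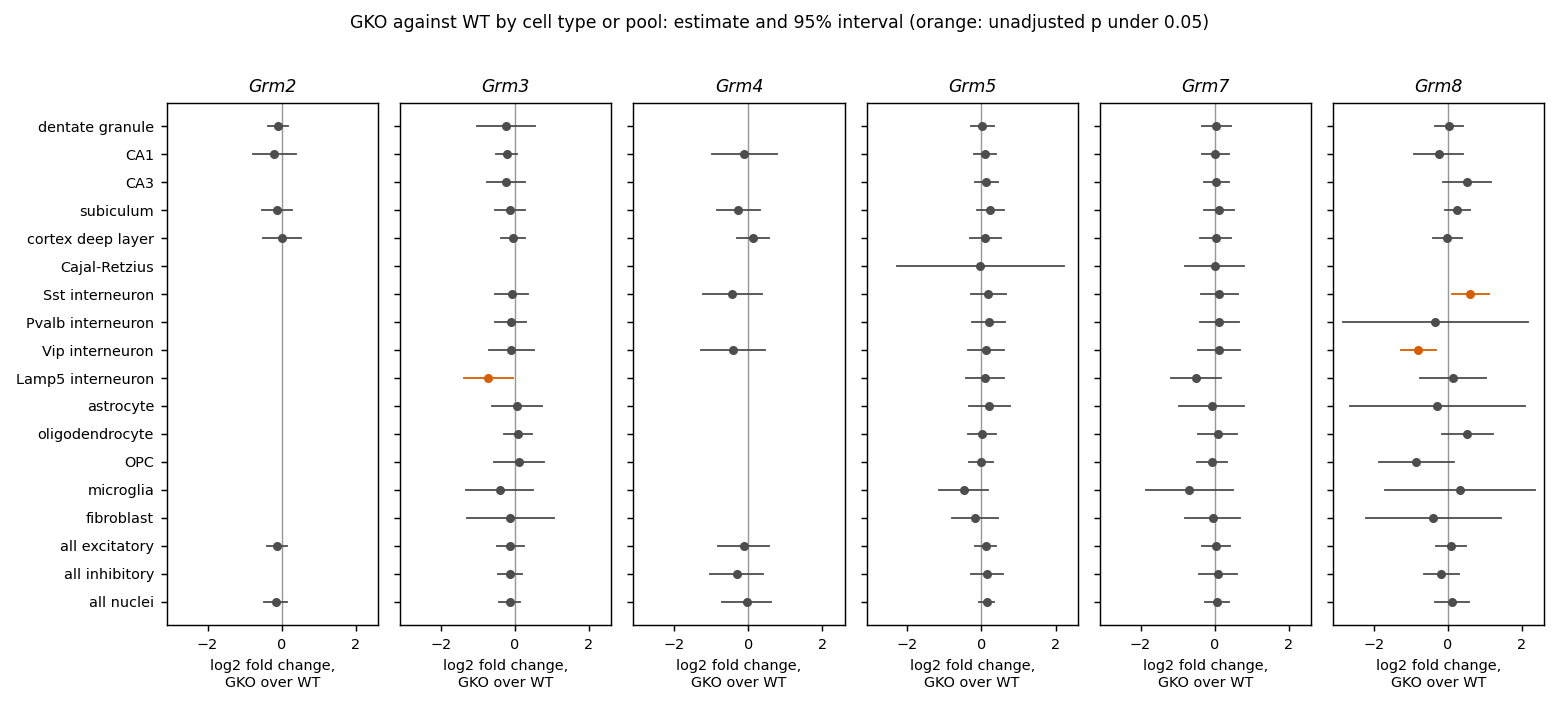
Log2 fold change of GKO over WT (horizontal axes) with its 95% interval for each tested member in each type or pool (vertical axis). Orange marks the 3 of 84 pairs with an unadjusted p under 0.05, namely Grm8 in Vip and Sst interneurons and Grm3 in Lamp5 interneurons, none of which passed adjustment.

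Grm8 made 2 of the 3 pairs, in opposite directions. The Vip interneuron group also held Cnr1 and Cck, at means of 1119 and 1058 CPM in WT mice beside 1270 CPM of Vip, where the Sst group held 65.9 and 56.5 CPM. In this group Grm8 was 551, 365 and 412 CPM in WT and 251, 280 and 225 CPM in GKO mice. All GKO values lay below all WT values, with a log2 fold change of -0.80 (SE 0.22, unadjusted p = 0.00233, edgeR adjusted p = 1). In Sst interneurons, which inhibit dendrites, Grm8 was 200, 130 and 205 CPM in WT and 313, 271 and 211 CPM in GKO mice. Here all GKO values lay above all WT values, with a log2 fold change of 0.60 (SE 0.23, unadjusted p = 0.0206, adjusted p = 1). Of the 67 member pairs tested in the 15 types, these 2 alone had genotypes that did not overlap, and 6.81% of all gene and type pairs with a mean of at least 10 CPM did not overlap. The third pair, Grm3 in Lamp5 interneurons, was 53.6, 45.8 and 35.7 CPM in WT and 16.3, 36.0 and 30.4 CPM in GKO mice, overlapping slightly. Its log2 fold change was -0.72 (SE 0.31, unadjusted p = 0.0338, edgeR adjusted p = 0.999). Grm3 was lower in GKO in 3 of 3 mice of the same number. That count depends on the pairing, since the lowest WT value lay below the highest GKO value. Of 25 interneuron marker genes, 2 kept the genotypes apart in Lamp5 nuclei, and 1 of the 15 with a mean of at least 10 CPM, where 7.08% of all genes at that level did so. These were Sst at 12.99 to 26.8 CPM in WT and 2.04 to 5.39 in GKO mice, and Pvalb at 3.27 to 6.50 and 0 CPM. Grm3 is higher in Sst than in Lamp5 interneurons, and the part of these markers in the Grm3 value was not tested.

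The difference between the 2 Grm8 effects was tested after these values were seen. The genotype effect was lower in Vip than in Sst interneurons, with a log2 difference of -1.40 (SE 0.20, interval -1.81 to -0.98, edgeR adjusted p = 0.00427), the single gene called of 10603 tested (0.00943%). In 6 such comparisons between interneuron types, Grm8 was called in this one alone. The share of genes called was 0.00956% for Pvalb against Sst, 0.01% for Lamp5 against Sst, 0% for Vip against Pvalb, 0.0206% for Lamp5 against Pvalb and 0.0399% for Lamp5 against Vip interneurons. Without WT replicate 2 the estimate was -1.33 with an adjusted p of 0.0737, and in the 4 mice of the second batch it was -1.17 with an adjusted p of 0.116. Single nuclei weighed on these sums. In GKO replicate 1, 83 of the 151 Grm8 UMIs of 22 Sst nuclei came from 1 nucleus, and without it the value fell from 313 to 151 CPM, inside the WT range. With the highest nucleus left out in every mouse and type the estimate was -1.34 (adjusted p = 0.0047).

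Within the Vip group, nuclei with a Vip UMI were 41.4%, 34.7% and 35% in WT and 39.5%, 41.7% and 45.5% in GKO mice. Their Grm8 was 1125, 532 and 1189 CPM in WT and 532, 571 and 398 CPM in GKO mice, so the groups overlapped. In nuclei without a Vip UMI, Grm8 was 278, 314 and 116 CPM in WT and 114, 154 and 129 CPM in GKO mice, also with overlap. Vip itself was 877 to 1555 CPM in WT and 387 to 1396 in GKO mice, and Sst in the Sst group 2079 to 4879 and 964 to 4158. Of the same 25 marker genes, 0 kept the genotypes apart in the Vip group and 4 did so in the Sst group. Among those with a mean of at least 10 CPM it was 0 of 20 and 1 of 12, beside 6.39% and 7.05% of all genes at that level. In the Sst group Crh was 0 to 2.98 CPM in WT and 7.16 to 21.1 in GKO mice and Ndnf 7.94 to 9.21 and 9.55 to 10.4. Slc17a8 was 11.5 to 22.7 CPM in WT and 0 to 9.29 in GKO mice and Gabrd 9.21 to 13.6 and 4.15 to 6.75. The part of these marker levels in the Grm8 values was not tested. In the J20 pair Grm8 went the other way, at 252 CPM in the J20;WT and 434 CPM in the J20;GKO mouse in Vip interneurons, and at 296 and 244 CPM in Sst interneurons. Between dentate granule neurons and CA1, the planned comparison of genotype effects called 0 of 15520 genes, with 2.78% at an unadjusted p under 0.05 in edgeR, and none of the 6 members.

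**Figure D4:**
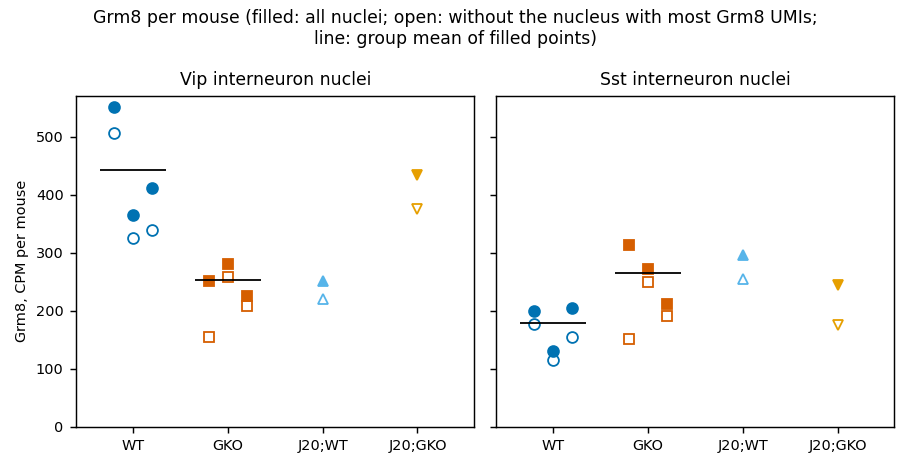
Grm8 in CPM per mouse (vertical axis, linear, starting at 0) by genotype in Vip and Sst interneuron nuclei. Filled points use all nuclei, open points leave out the nucleus with most Grm8 UMIs, and lines are group means of filled points; in Sst nuclei the open point of GKO replicate 1 falls to 151 CPM, inside the WT range.

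Grm7 also differed between the 2 batches of WT and GKO mice. Both mice of the first batch had more Grm7 than all 4 of the second in 12 of 15 types, where 6.41% to 18.9% of all genes did so in a given type. In dentate granule neurons Grm7 was 1871 and 1820 CPM in WT and GKO replicate 1 and 1366 to 1505 in the other 4 mice. In CA3 it was 2031 and 2114 against 1620 to 1773 CPM. The same was seen in fewer types for Grm5 (5), Grm2 (5), Grm4 (4), Grm3 (3) and Grm8 (2). Grm3 in astrocytes was lower in the first batch, at 606 and 473 CPM against 848 to 1082. Each batch held both genotypes, so genotype was compared within the second batch as well, where 0 pairs were called. Batch and Xist level cannot be told apart in these 6 mice.

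In the J20 pair, 78 member and type values had at least 50 UMIs. Comparing J20;GKO with J20;WT, 23 of them had a log2 ratio beyond 0.5 either way (14 up and 9 down), against 21.9% of all gene and type values, and 41 lay within the range spanned by pairs of GKO and WT mice. Grm2 in dentate granule neurons reached 29.8 CPM in the J20;WT mouse on 146 UMIs, with a counting interval of 25.1 to 35.01 (exact Poisson, 95%). The J20;GKO mouse had 67.3 CPM on 248 UMIs, with an interval of 59.2 to 76.2, so that the log2 ratio was 1.17 (25% of genes in these nuclei had a ratio beyond 0.5). The 6 other mice lay at 38.2 to 46.7 CPM, so the J20;WT mouse was below and the J20;GKO mouse above all of them. In CA1 Grm2 was 5.74 and 10.5 CPM, a log2 ratio of 0.85 with an interval of 0.07 to 1.70, and over all excitatory nuclei 15.7 and 29.5 CPM, a ratio of 0.91. The 2 J20 libraries come from different batches, and Xist was 3.00 CPM in the J20;WT and 2410 CPM in the J20;GKO mouse, with Eif2s3y, a gene of the Y chromosome, at 251 and 0.089 CPM. Genotype cannot be told apart from batch or from these levels here.

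Grm7 in astrocytes was 90.5 and 162 CPM (0.84), inside the 82.1 to 197 CPM of the 6 mice, and astrocytic Grm7 was at background level (7.73% of the excitatory level, against 10.8% for the neuronal list). Grm7 in Lamp5 interneurons was 405 and 181 CPM (-1.16), inside 141 to 457 CPM as well. Grm5 in microglia was 53.7 and 107 CPM (0.97) on 19 and 64 UMIs, against 91.8 to 247 CPM in the 6 mice, and microglial Grm5 was at background level. In fibroblasts, with 33 and 27 nuclei and 50.9% of genes past the same ratio, Grm3 was 547 and 97.3 CPM, Grm5 39.6 and 347 CPM and Grm7 55.5 and 347 CPM, the J20;WT value lying outside the other 6 mice each time. Grm8 in an excitatory cluster that no subtype marker resolved was 231 and 501 CPM on 11 and 280 UMIs, inside 166 to 524 CPM, but these J20;WT nuclei held 1490 UMIs a nucleus on average and the J20;GKO nuclei 15116.

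**Figure D5:**
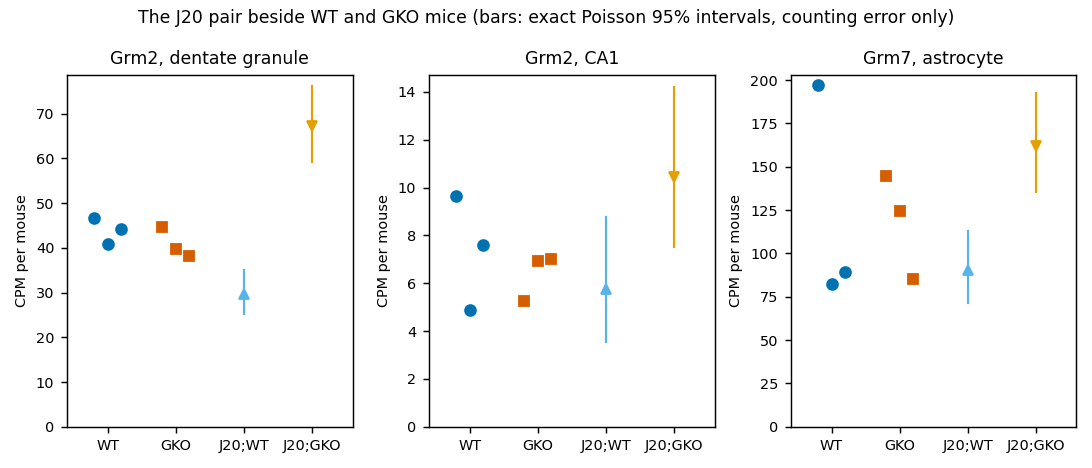
CPM per mouse (vertical axes, linear, starting at 0) by genotype for Grm2 in dentate granule neurons and CA1 and Grm7 in astrocytes; bars on the J20 points are exact Poisson 95% intervals, which cover counting error only. Astrocytic Grm7 lies at the background level of these nuclei. In dentate granule neurons the J20;WT value of 29.8 and the J20;GKO value of 67.3 lie outside the 38.2 to 46.7 CPM of the other 6 mice.

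Of a list of 71 genes of the receptors' pathway, 1029 gene and type pairs were tested for GKO against WT, and 0 were called and 26 had an unadjusted p under 0.05 in edgeR, against 1.79% of all gene and type pairs. These were 7 of 146 pairs for glutamate supply and removal, 2 of 236 for the Gq arm, 1 of 233 for the Gi/o arm, 9 of 279 for partners and scaffolds and 7 of 135 for desensitization, and nothing is read from these counts. Between cell types, dentate granule neurons had 8 of 68 higher and 32 lower than CA1, against 20.8% and 22% of all genes. Folh1, which encodes the peptidase that frees glutamate from the receptor agonist NAAG, was lower at -3.49 (0.71 against 8.11 CPM), as was Itpr2, a calcium store channel of the Gq arm, at -2.87. Rgs8, a brake on G proteins, was higher in granule neurons by 1.09, and Slc1a3, a glutamate transporter of glia, by 0.85. Median depth was 5836 to 10111 UMIs a library in granule neurons and 11001 to 18026 in CA1, and the part of free glial RNA in the Slc1a3 value was not tested.

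Against CA1, CA3 had 12 of 66 genes of the list higher and 22 lower (16.2% and 15.1% of all genes). Homer3, a scaffold that binds group I receptors and was itself among the CA3 markers used for naming, was higher by 2.44, and the glutamate transporter gene Slc1a2 by 1.499 (308 against 111 CPM). Adcy8, a calcium-stimulated adenylyl cyclase, was lower at -2.65 (17.4 against 108 CPM), as was Folh1 at -2.51. Inhibitory nuclei had 19 of 70 higher and 31 lower than excitatory nuclei (22.4% and 22.3% of all genes). Elfn1, whose product binds Grm7 receptors across the synapse, was higher by 3.36 (72.8 ± 7.77 against 6.63 ± 1.22 CPM) and the vesicular glutamate transporter gene Slc17a8 by 5.83. Rgs14, a regulator of G protein signalling, was lower at -2.74, as was the vesicular transporter gene Slc17a7 at -2.89. Slc17a7, Slc17a8 and Rgs14 were among the markers used for naming. Astrocytes had 20 of 62 higher and 24 lower than OPCs (27.5% and 27.9%), with Slc7a11, the cystine-glutamate exchanger, higher by 5.52 and Slc9a3r1, a PDZ scaffold, by 5.11, and Elfn1 lower at -4.97 and the transporter gene Slc1a1 at -3.63.

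Over 18 types, the mean levels of Grm4 and Grm8 were the most alike among the members (Pearson r = 0.78 of log2 CPM), followed by Grm5 and Grm7 (0.64), while Grm3 and Grm5 had r = -0.29. These are descriptions over types that share libraries and depth. Among 14866 genes, the closest to Grm5 were Rbfox1, B230334C09Rik and Gria3 (r = 0.95 each), and the closest to Grm4 were Sgcz, Vwc2l and Cntn6 (0.87 each). Grm2 was closest to Mtf2 (0.83), Mmel1 (0.81) and Nrg1 (0.81), the latter pair highest in Cajal-Retzius cells, where Grm2 rests on 14 UMIs, and Grm3 to Gm48740, Daam2 and Arl4d (0.83, 0.83 and 0.82), all 3 highest in oligodendrocytes. Grm7 was closest to Synpo, Abi2 and St8sia3os (0.83, 0.82 and 0.82) and Grm8 to Hs6st2, Cyb561 and Kcnf1 (0.84, 0.83 and 0.83), of which Cyb561 was highest in choroid plexus nuclei.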

How the data were processed

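Hippocampal nuclei of 8 mice were profiled with 10x droplets. The authors deposited raw UMI counts per gene and nucleus, made with Cell Ranger against mm10 per the labels; whether introns were counted is not given in the sources used here. Nuclei with at most 5% mitochondrial UMIs and 200 to 7500 genes were kept, as in the study's methods. Seurat 5.3.0 and sctransform 0.4.2 in R 4.3.3 integrated the libraries (3000 features without the members, 30 components, 20 neighbours, resolution 0.8), and clusters were named from marker lists. Nuclei called doublets by Scrublet (scanpy 1.11.5) were kept in the main values, and the caller did not work in WT and GKO replicate 1 (under 0.5% called).

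UMI counts were summed per mouse and type, where each mouse had at least 10 nuclei, and tested with edgeR 4.0.16 (quasi-likelihood, TMM, filterByExpr, Benjamini-Hochberg over all genes); DESeq2 1.42.0 was an alternative. On simulated counts of all excitatory nuclei (17482 genes), 63% of 200 genes changed by a log2 of 1 were called, with 6 false calls. The members and lists were chosen with earlier results of these data known. The members were measured in all types, and the text gives only a part of those levels, by value or by range. The text also names GKO against WT pairs at an unadjusted p under 0.05, J20 log2 ratios over 0.5 on at least 50 UMIs (at most 10), the 2 pathway genes changed most each way in 4 contrasts, and the 3 genes most alike to each member, among genes of at least 10 CPM in a type. WT and GKO mice of the same number deviated together (r = 0.70, 0.30 and 0.37), and the numbers were taken to pair them. Different numbers within the second batch did so too (0.31 and 0.46), so these values do not set the pairs there. Counts over mice of the same number, and the replicate block, rest on that choice. Libraries shared 2 to 21 barcodes, and no pair of libraries agreed within sampling noise.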

Additional observations from a re-analysis of the deposited data

Results flagged for a closer look

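The Grm8 difference between genotypes pointed opposite ways in Vip and Sst interneurons. The log2 fold change of GKO over WT was lower in Vip than in Sst interneurons by a difference of -1.40 (edgeR interaction test with the mouse as a block, adjusted p = 0.00427), with 3 of 3 GKO mice below all WT mice in Vip nuclei and 3 of 3 above all WT mice in Sst nuclei. Of all genes with a mean of at least 10 CPM, 6.39% in Vip and 7.05% in Sst nuclei likewise kept the genotypes apart. In Vip group nuclei with a Vip UMI the genotypes overlapped, as they did in those without. The comparison of genotype effects was added after the values were seen, as 1 of 6 between interneuron types. The adjusted p ran from 1.08e-07 without a filter on low counts to 0.116 in the second batch alone, and was 0.0737 without WT replicate 2. In Sst nuclei of GKO replicate 1, 83 of 151 Grm8 UMIs came from 1 nucleus, without which that mouse, at 151 CPM, lay inside the WT range of 130 to 205. The J20 mice, 1 of each genotype, went the other way, from 252 in J20;WT to 434 CPM in J20;GKO in Vip and from 296 to 244 CPM in Sst nuclei.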

How the results depend on the processing

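With GKO and WT mice of the same number entered as a replicate block, 0 members were called, as in the main analysis, and 9 pairs rather than 3 fell under an unadjusted p of 0.05. With batch as a term there were 9, without a filter on low counts 9, in the second batch alone 8 (added after the data were seen), and with 1 mouse left out 2 to 7; DESeq2 left 3. Over all genes the share was 1.79% in the main analysis, 4.72% with the block, 4.57% with batch, 2.45% without a filter, 4.53% in the second batch and 0.691% in DESeq2. In each of these settings 0 pairs were called. The Grm8 difference between Vip and Sst interneurons was -1.17 in the second batch (adjusted p = 0.116) and -1.55 to -1.29 with 1 mouse left out, no longer called without WT replicate 2 (0.0737). In the clusters without integration Sst and Pvalb nuclei merged, so that contrasts with Sst could not be run there.

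Of 846 recomputed member differences between types, 803 kept their direction and side of the threshold, 16 became called, 17 lost the call and 10 changed direction, none of these last with an adjusted p under 0.05. Without integration these were Grm4 in CA3 against CA1 (-0.11), Grm8 in inhibitory against excitatory nuclei (0.27) and Grm8 in astrocytes against OPCs (-0.11). In DESeq2 Grm2 in OPCs against oligodendrocytes was -0.024. With 1 mouse left out, Grm8 in OPCs against oligodendrocytes ran from -0.44 to 0.042, Grm5 in Pvalb against Sst interneurons from -0.00334 to 0.073 and Grm4 in Vip against Sst interneurons from -0.040 to 0.10. Without a filter, 5 members differed between astrocytes and OPCs in place of 3. The cause was not tested.

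By mean UMIs per nucleus, which follow depth, the log2 ratio of the leading pair of types was 0.16 in place of 0.72 for Grm2, -0.20 in place of 0.69 for Grm3, -0.010 in place of 0.17 for Grm5 and 0.64 in place of 0.01 for Grm7. Other types then came first for Grm3 (cortex deep layer, 5.42 UMIs) and Grm5 (CA3, 35.8 UMIs). Without integration the log2 ratio of the leading pair was 1.30 for Grm2 and -0.083 for Grm7. Per nucleus, the J20 log2 ratios were 1.33 (Grm2, excitatory), 1.69 (Grm2, dentate granule), -0.73 (Grm7, Lamp5) and 4.40 (Grm8, unresolved excitatory cluster).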
